A study of Saccharomyces cerevisiae with 5 samples.

Results

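The genes described here are 10 of the 5449 budding yeast (Saccharomyces cerevisiae) genes measured, and they belong to the classic oxygen- and heme-regulated paralogs of yeast mitochondria and translation. They were picked by name: the ADP/ATP carrier genes PET9, AAC3 and AAC1, the cytochrome c genes CYC1 and CYC7, the COX5A and COX5B forms of subunit 5 of cytochrome c oxidase, the hypoxic eIF5A gene ANB1, the repressor gene ROX1 and the heme synthesis gene HEM13. Their log2 signals in the contrast described below were known when they were picked, so their values are a description and carry no test. All 10 have a probe set on the array, and all lie above the background bound on every array, a log2 signal of 6.44 taken from probe sets that match no gene of this yeast. HYP2, the aerobic partner of ANB1, is not one of the 10 and is given beside it.

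RNA of 2 samples labelled as a PHO2 deletion mutant (the deletion-labelled arrays) and of 3 labelled as wild-type FY4, the study's reference strain, was hybridised to 5 Affymetrix expression arrays. PHO2 encodes a homeodomain transcription factor that acts with partner factors such as Bas1 and Pho4. Both groups grew exponentially in shaken batch culture in minimal medium with glucose and were harvested at the same density, so no array comes from cells deprived of oxygen or heme by design. The sources used here give neither the deletion construct nor whether replicates are separate cultures, so p-values measure the spread between these arrays, which may be technical.

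The labels were checked first. The PHO2 probe set gave log2 signals of 10.07 and 10.84 on the deletion-labelled arrays, against 10.72, 10.54 and 10.38 on wild-type arrays, so it did not separate the groups, and the sources used here do not place its probes relative to the deleted part. A reporter probe set for a foreign construct sequence did separate them, at 14.35 and 14.38 on deletion-labelled arrays against 4.38, 4.58 and 4.29 on wild-type arrays. Directions below are therefore those of the deletion-labelled arrays. The 5 markers of a cells lay between 13.06 and 14.39 on those arrays and between 12.22 and 14.23 on wild-type arrays, all far above the background bound. The 4 markers of alpha cells ran from 6.60 to 10.30 on deletion-labelled arrays and from 5.64 to 10.29 on wild-type arrays. Of these 9 markers, STE3, the a-factor receptor gene of alpha cells, rose by limma's test (8.50 on deletion-labelled arrays and 7.58 on wild-type arrays, difference 0.93, SE 0.14, adjusted p = 0.0312). The short pheromone genes MFA1 (1.38, adjusted p = 0.0719) and MFA2 (1.11, adjusted p = 0.143) of a cells and MF(ALPHA)1 of alpha cells (0.79, adjusted p = 0.0776), whose signals lay near the background bound, did not pass it. Signals of short genes also moved with the groups. The median gene of 600 nt or less (908 genes) lay 0.33 and 0.31 log2 units above its wild-type mean on the deletion-labelled arrays, against 0.05, 0.17 and -0.18 on wild-type replicates 1, 2 and 3, and its difference between the groups was 0.32. For genes over 1200 nt (2803 genes) that median difference was -0.05. CYC1, CYC7, COX5A, COX5B and ANB1 are short in this sense, the other 5 are not, and the differences of the short ones are given below also after each array was corrected for its trend over gene length.

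Yeast keeps separate genes for well aerated and for poorly aerated growth. With oxygen, cells make heme, and heme turns on Hap1 and the Hap2/3/4/5 complex, which activate CYC1 and other respiratory genes. Hap1 also activates ROX1, whose product represses hypoxic genes such as ANB1, HEM13, AAC3 and COX5B. When heme runs low the Rox1 protein is lost and the hypoxic forms appear, among them CYC7, which is also known to respond to stress. The question asked of these arrays is whether the aerobic forms were higher where the hypoxic forms were lower.

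In brief, the ADP/ATP carriers and eIF5A had a lower hypoxic form beside an aerobic form that hardly differed, and cytochrome c and COX5 had both forms higher together. By limma's fit over all genes, 275 genes (5.05% of 5449) passed an adjusted p of 0.05, 173 upward (3.17%) and 102 downward (1.87%). With the arrays quantile normalized again the split was 172 upward and 245 downward. Of the 10 genes, AAC1 passed upward and AAC3 downward, a count from which nothing is read because this contrast was known when the genes were picked. The groups did not overlap for 7 genes that were higher on the deletion-labelled arrays (27.1% of all genes) and 2 that were lower (25.9% of all genes). Among the higher ones, CYC1, CYC7, COX5A and COX5B have 600 nt or less, a class in which 61.2% of genes were higher without overlap. ROX1 was the 1 whose groups overlapped. The median difference of the 10 genes was 0.24, against 0.01 over all genes, and it was 0.08 after each array was corrected for gene length.

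**Figure D1:**
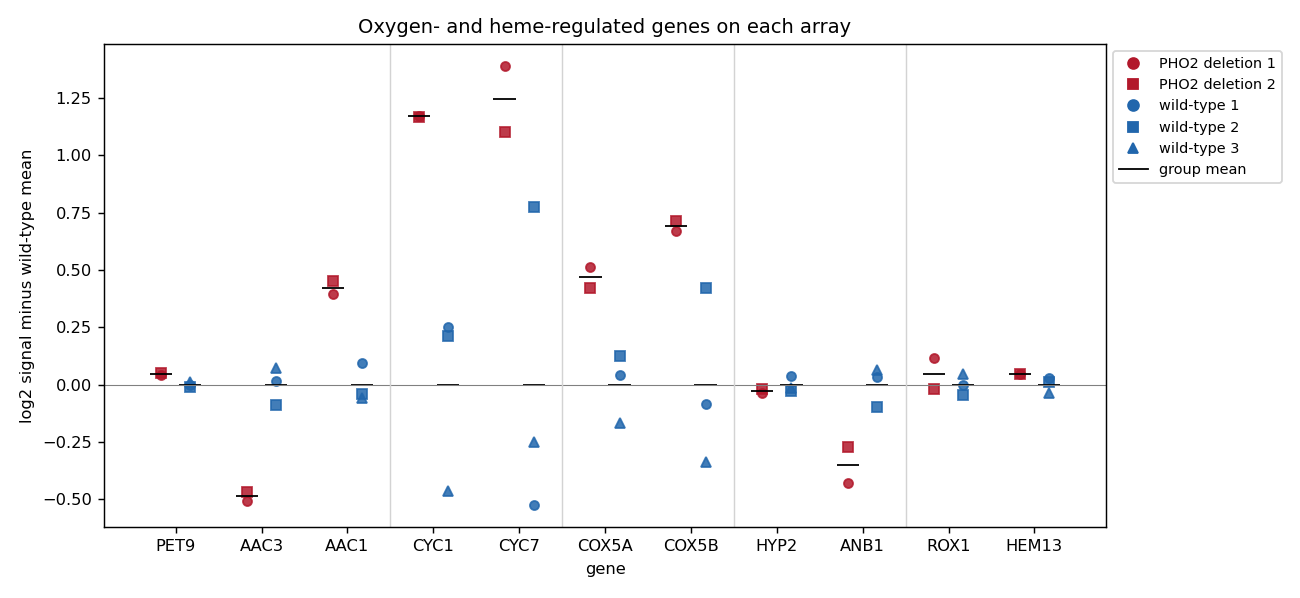
Log2 signal of each gene on each of the 5 arrays, minus that gene's mean over the wild-type arrays (y axis), with red points for deletion-labelled arrays, blue points for wild-type arrays and black bars for group means. The points of CYC1, CYC7, COX5A, COX5B and AAC1 on the deletion-labelled arrays lie above every wild-type point, those of AAC3 and ANB1 lie below, and CYC7 and COX5B spread widely over the wild-type arrays.

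The ADP/ATP carriers swap ATP made in mitochondria for cytosolic ADP across the inner membrane. PET9, also called AAC2, encodes the major aerobic carrier. Its log2 signals were 14.24 and 14.24 on the deletion-labelled arrays, against 14.19, 14.18 and 14.21 on wild-type arrays. The groups did not overlap, but the difference was 0.05 (SE 0.05), and it was 0.00 when each array was centred on its median gene. AAC3 encodes the form made when oxygen is scarce. It gave 10.10 and 10.14 on the deletion-labelled arrays, against 10.62, 10.52 and 10.68 on wild-type arrays. Both values lay clearly below all wild-type values, at 71.3% of the wild-type level (log2 difference -0.49, SE 0.07). AAC1, a minor carrier made in aerobic cells and repressed without oxygen, gave 11.33 and 11.39 on the deletion-labelled arrays, against 11.04, 10.90 and 10.88 on wild-type arrays. It was 1.34-fold higher (log2 0.42, SE 0.07), again with no overlap. These genes are of like length (957, 924 and 930 nt), within a class of 1738 genes whose median difference was 0.03. In that class 0.748% of genes had a difference below that of AAC3 and 6.67% had one above that of AAC1. The family thus showed an aerobic major form that hardly differed, a hypoxic form that was lower and a minor aerobic form that was higher. Over 14 alternative settings, each leaving out of an array among them, AAC3 ranged from -0.55 to -0.45 and AAC1 from 0.38 to 0.47. Settings that change only the genes tested or add a trend in eBayes cannot alter these differences. The replicate block repeats the values obtained without wild-type replicate 3.

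Cytochrome c carries electrons from the bc1 complex to cytochrome c oxidase, as iso-1 from CYC1 in aerobic cells and as iso-2 from CYC7. CYC1 gave log2 signals of 12.87 and 12.87 on the deletion-labelled arrays, against 11.95, 11.91 and 11.23 on wild-type arrays. Its deletion-labelled arrays were all but identical and lay above all wild-type values, while wild-type replicate 3 lay well under the other 2. The difference was 1.17 (SE 0.23), or 2.25-fold. CYC7 gave 10.95 and 10.66 on the deletion-labelled arrays, against 9.04, 10.34 and 9.31 on wild-type arrays. The highest wild-type array came close to the lower of the deletion-labelled arrays, and the wild-type SD of 0.68 exceeded that of 99.2% of all genes. Its difference was 1.25 (SE 0.40), or 2.37-fold. The hypoxic form was therefore higher along with the aerobic form, and the change of one relative to the other, -0.08 (SE 0.53), was far smaller than its error. Its sign depended on single arrays, as it was 0.31 when wild-type replicate 1 was left out, 0.07 when PHO2 deletion replicate 1 was and -0.36 when wild-type replicate 2 was, and array weights gave -0.40. Both genes are short, at 330 and 342 nt, and 5.18% and 4.07% of genes of 600 nt or less had a larger difference. Corrected for gene length, CYC1 differed by 0.69 and CYC7 by 0.77.

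Subunit 5 of cytochrome c oxidase exists as Cox5a in aerobic cells and as Cox5b, which lets the enzyme turn over faster, when oxygen is low. COX5A gave log2 signals of 13.34 and 13.24 on the deletion-labelled arrays, against 12.86, 12.95 and 12.66 on wild-type arrays. These groups did not overlap, and the difference was 0.47 (SE 0.10), or 1.38-fold. COX5B gave 12.19 and 12.24 on the deletion-labelled arrays, against 11.44, 11.94 and 11.18 on wild-type arrays. Its wild-type values covered 0.76 log2 units, and the difference of 0.69 (SE 0.22), or 1.62-fold, was smaller than that range. As with cytochrome c, the hypoxic form was higher together with the aerobic form. The aerobic form changed by -0.23 (SE 0.20) relative to the hypoxic form, about the size of its error. COX5A has 462 nt and COX5B 544 nt with its intron. Of genes of 600 nt or less, 35.5% had a larger difference than COX5A and 19.6% a larger difference than COX5B, and correction for gene length left 0.13 for COX5A and 0.44 for COX5B.

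ANB1 and HYP2 encode nearly identical forms of eIF5A, the hypusine-bearing translation factor, ANB1 for hypoxic and HYP2 for aerobic growth. ANB1 gave log2 signals of 9.97 and 10.13 on the deletion-labelled arrays, against 10.43, 10.30 and 10.46 on wild-type arrays. Both values lay below all wild-type values, at 78.4% of the wild-type level (log2 difference -0.35, SE 0.08). HYP2 gave 14.26 and 14.28 on the deletion-labelled arrays, against 14.34, 14.27 and 14.28 on wild-type arrays. The groups overlapped, with a difference of -0.03 (SE 0.05, adjusted p = 0.754 by limma). ANB1 has 474 nt and went against the shift of short genes: 2.86% of genes of 600 nt or less had a lower difference, and correction for gene length made its difference -0.67, but took that of HYP2 to -0.35 as well. HYP2 relative to ANB1 changed by 0.32 (SE 0.08). HYP2 also has 474 nt, so the correction for gene length cannot alter that value. Each has a probe set of its own, and how far RNA of HYP2 binds the ANB1 probes was not tested.

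**Figure D2:**
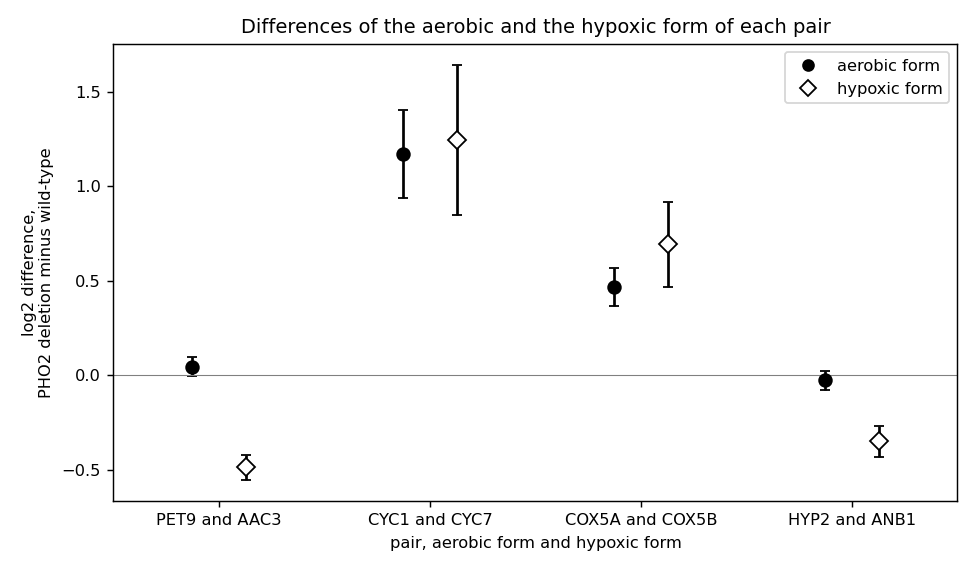
Log2 difference between deletion-labelled arrays and wild-type arrays (y axis) for the aerobic form (filled circles) and the hypoxic form (open diamonds) of each pair, with limma's standard errors as bars. The hypoxic form lies below the aerobic form for PET9 and AAC3 and for HYP2 and ANB1, while both forms lie above 0 with overlapping bars for CYC1 and CYC7.

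Set against each other within each array, PET9 relative to AAC3 stood 0.55 and 0.52 above its wild-type mean on the deletion-labelled arrays, against -0.02, 0.08 and -0.06 on wild-type arrays. That is a change of 0.53 (SE 0.05), or 1.45-fold. HYP2 relative to ANB1 stood at 0.40 and 0.25 on deletion-labelled arrays, against 0.01, 0.07 and -0.08 on wild-type arrays. For both of these pairs the groups did not overlap, and the hypoxic form had the larger difference of each. CYC1 relative to CYC7 stood at -0.22 and 0.07 on the deletion-labelled arrays, against 0.78, -0.56 and -0.22 on wild-type arrays. COX5A relative to COX5B stood at -0.16 and -0.29 on deletion-labelled arrays, against 0.13, -0.29 and 0.17 on wild-type arrays. In these pairs the groups overlapped.

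ROX1 encodes the heme-dependent repressor of hypoxic genes. It gave log2 signals of 12.00 and 11.86 on the deletion-labelled arrays, against 11.88, 11.84 and 11.93 on wild-type arrays. The groups overlapped, with a difference of 0.05 (SE 0.07) that became -0.02 without PHO2 deletion replicate 1. HEM13, coproporphyrinogen III oxidase, uses oxygen in heme synthesis and is a classic target of Rox1. It gave 11.49 and 11.49 on the deletion-labelled arrays, against 11.47, 11.45 and 11.40 on wild-type arrays. These groups did not overlap, but the difference was 0.05 (SE 0.05), and 0.00 when arrays were centred on their medians. Of the Rox1 targets named above, AAC3 and ANB1 were thus lower, COX5B was higher and HEM13 hardly differed. CYC7, named above among the forms that appear when heme runs low, was higher too (1.25).

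ANB1 and CYC1 lie side by side in the gene table of assembly R64 with 0 protein-coding genes between them. By their locus names, YJR047C and YJR048W, they are read from opposite strands away from their shared intergenic region. They differed in opposite directions, -0.35 for ANB1 and 1.17 for CYC1. Their paralogs HYP2 and CYC7 lie near each other on another chromosome, with 4 protein-coding genes between them. Beyond the pair, the neighbours TAH11 next to ANB1 (-0.02, adjusted p = 0.861) and UTR1 next to CYC1 (-0.10, adjusted p = 0.485) did not pass limma's test.

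**Figure D3:**
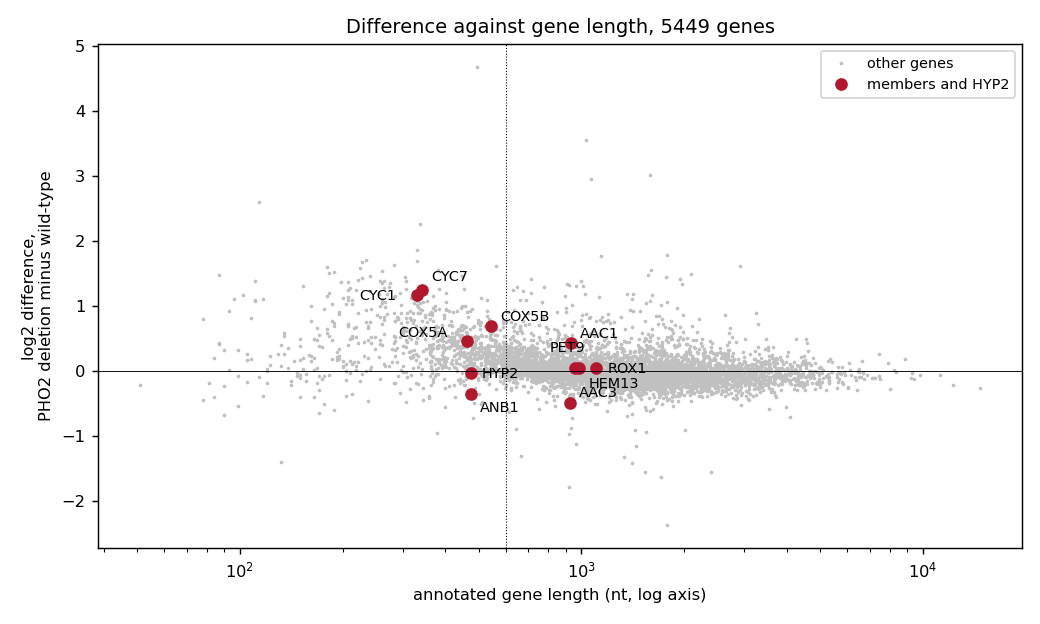
Log2 difference between deletion-labelled arrays and wild-type arrays (y axis) against annotated gene length in nt (log x axis) for all 5449 genes in grey, with the 10 genes and HYP2 in red and a dotted line at 600 nt. Genes of 600 nt or less have a median of 0.32, with COX5A (0.47) and COX5B (0.69) above it, CYC1 (1.17) and CYC7 (1.25) far above it and ANB1 (-0.35) below 0.

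Genes whose values ran most like those of the members were found by the root mean square difference of log2 values over the 5 arrays, after each gene was set to its wild-type mean. For CYC1, with the largest difference among the aerobic forms, they were YOL038C-A (0.10), SIP18 (0.11) and MIC12 (0.11), all shorter than CYC1 at 96, 240 and 321 nt. For CYC7, with the largest difference among the hypoxic forms, they were HSP42, a small heat shock protein gene (0.20), YGL230C (0.25) and BLS1 (0.25), with 1128, 444 and 369 nt. No CYC7 neighbour in pattern came as close as those of CYC1 did.

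The partners of cytochrome c were higher with it. All 16 genes for nuclear-encoded subunits of the bc1 complex and cytochrome c oxidase had positive differences. So did 2819 of all 5449 genes and 85.6% of genes of 600 nt or less. Of the 16 subunit genes, 2 rose and 0 fell by limma's test, against 3.17% of all genes risen. Before adjustment 15 reached p below 0.05 (29.4% of all genes did). RIP1, the Rieske iron-sulfur protein, rose by 0.61 (SE 0.08, adjusted p = 0.0250), and QCR6, a small acidic bc1 subunit, rose by 0.50 (SE 0.09, adjusted p = 0.0441). The others ranged up to the 1.50 of COX7 (SE 0.38, adjusted p = 0.0870), and the median was 0.56, against 0.01 over all genes. Replicate 3 was the lowest wild-type array for 12 of the 16 subunits and for 5 of the 10 members, CYC1, COX5A, COX5B, AAC1 and HEM13. It was also the lowest for 70.8% of genes of 600 nt or less, against 36.9% of all genes. With 12 of the 16 being 600 nt or less, the median was 0.21 after correction for gene length, and QCR6 no longer passed (1 risen gene, RIP1). For the 4 longer subunits alone the median was 0.25. The number of risen subunits was 0 without wild-type replicate 1, PHO2 deletion replicate 1 or PHO2 deletion replicate 2, and 7 without either of the other wild-type arrays, although QCR6 itself missed the threshold without wild-type replicate 2.

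**Figure D4:**
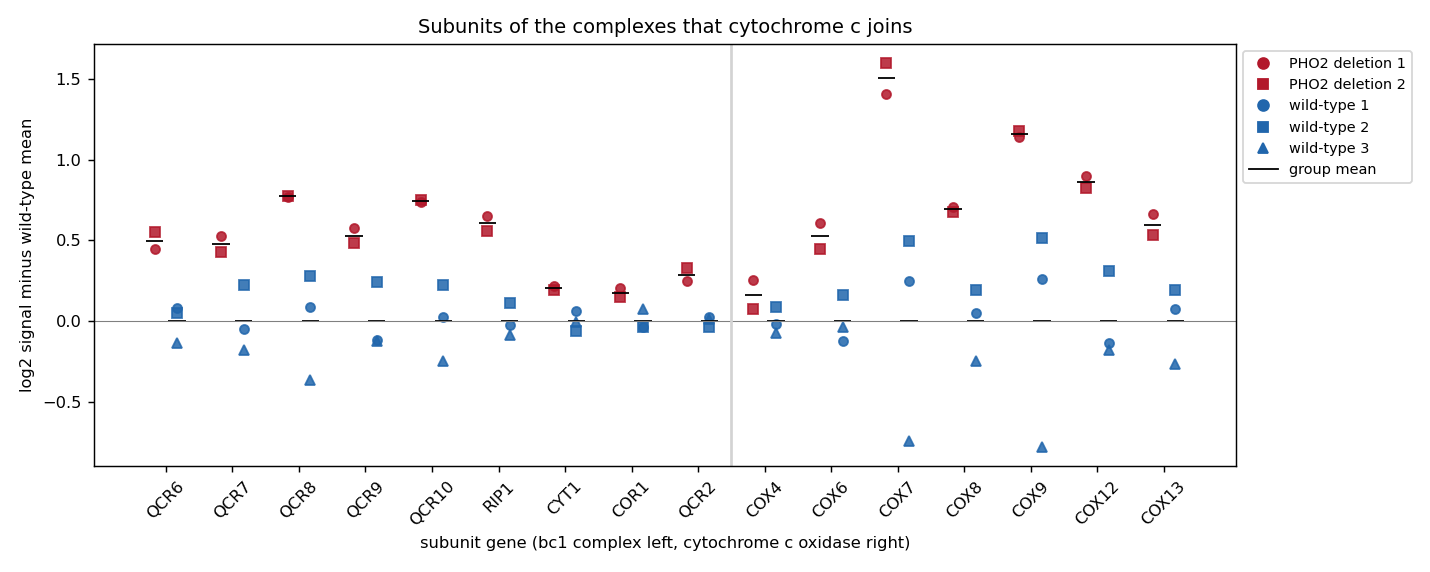
Log2 signal minus the wild-type mean (y axis) of 16 subunit genes of the bc1 complex and cytochrome c oxidase on each of the 5 arrays, red for deletion-labelled arrays, blue for wild-type arrays, black bars for group means. The red points lie above all blue points for 15 of the 16 genes (27.1% of all genes and 61.2% of genes of 600 nt or less), and COX7 and COX9 spread most over the wild-type arrays.

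The regulators that link oxygen and heme to these genes held no called gene. Of 14 measured, 0 rose and 0 fell by limma, against 3.17% and 1.87% of all genes, so little is read from these counts. An unadjusted p below 0.05 was reached by 2 (29.4% of all genes). These were HAP3, a DNA-binding subunit of the Hap2/3/4/5 complex, with 0.64 (SE 0.17, adjusted p = 0.0943), and the general repressor gene TUP1 with -0.18 (SE 0.06, adjusted p = 0.126). HAP3 is the only short gene of that list (435 nt), and it passed with array weights and without wild-type replicate 3. After the correction for gene length its difference was 0.27 (adjusted p = 0.0930 by limma). The activators HAP1 (-0.10) and HAP4 (0.12) did not pass either.

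Heme synthesis and use (13 genes besides HEM13) likewise held 0 risen and 0 fallen genes by limma, against 3.17% and 1.87% of all genes. In this list 5 had an unadjusted p below 0.05 (29.4% of all genes), and the median was -0.04. The smallest p-values were those of HMX1, the heme oxygenase (0.44, SE 0.09, adjusted p = 0.0539), and COX10, which makes heme O for cytochrome c oxidase (-0.24, SE 0.06, adjusted p = 0.0901). HMX1 passed upward with array medians centred, array weights, the correction for length or without genes of 600 nt or less, and its difference was 0.19 (adjusted p = 0.107) with the arrays quantile normalized again.

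Hypoxic and anaerobic genes other than the members held calls up and down. Among the 14 measured, 3 rose (21.4%) and 1 fell (7.14%), against 3.17% and 1.87% of all genes, with a median of 0.04. With the arrays quantile normalized again 1 rose and 2 fell, and with a trend in eBayes 2 rose and 2 fell, so which direction held more calls depended on the processing. FET4, a low-affinity iron transporter gene repressed by Rox1, fell by 0.50 (SE 0.08, adjusted p = 0.0398), much as AAC3 did. PDR11, a sterol uptake transporter gene, rose by 0.50 (SE 0.06, adjusted p = 0.0183), and TIR3, a cell wall mannoprotein gene of anaerobic cells, also rose by 0.50 (SE 0.08, adjusted p = 0.0421). DAN1, another anaerobic mannoprotein gene, passed the test (adjusted p = 0.0414), but its means of 4.67 on the deletion-labelled arrays and 4.16 on wild-type arrays are both below the background bound, so no size is given. AUS1, the sterol transporter partner of PDR11, had -0.27 (adjusted p = 0.0556), and the fatty acid desaturase gene OLE1 -0.07. None of the 4 calls held without wild-type replicate 1, PHO2 deletion replicate 1 or PHO2 deletion replicate 2. FET4 and TIR3 also missed the threshold without wild-type replicate 3, and TIR3 and DAN1 without wild-type replicate 2 or with the arrays quantile normalized again. TIR3 missed it after the correction for gene length too, and DAN1 with array medians centred or a trend in eBayes.

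Sterol synthesis, which uses oxygen and heme at several steps, held 0 risen and 0 fallen genes of 23 by limma, against 3.17% and 1.87% of all genes. In this list 6 had an unadjusted p below 0.05 (29.4% of all genes), and the median was -0.03. ERG13 had -0.28 (adjusted p = 0.0591) and ERG8 -0.22 (adjusted p = 0.0727), and both passed downward with a trend in eBayes, with array weights and without genes of 600 nt or less. ERG13 also passed with the arrays quantile normalized again and after the correction for length. The largest difference of the list was upward, 0.56 for the short gene ERG28 (447 nt, adjusted p = 0.0906 by limma). With array weights 1 gene of the list rose and 2 fell, and 1 rose and 0 fell without wild-type replicate 2. Among 6 other genes known to be activated through heme, 2 rose (33.3%) and 0 fell, against 3.17% and 1.87% of all genes. Differences were positive for 4 of the 6 and negative for CTA1 (-0.27, adjusted p = 0.126 by limma) and NCP1 (-0.06). With the arrays quantile normalized again 3 rose and 1 fell. YHB1, a flavohemoglobin that detoxifies nitric oxide, rose by 0.78 (SE 0.07, adjusted p = 0.0119), and CTT1, the cytosolic catalase that also responds to stress, rose by 0.85 (SE 0.15, adjusted p = 0.0471). Of the 22 other mitochondrial carriers measured, 1 rose (4.55%) and 0 fell, a share near the 3.17% of all genes risen, with a median of 0.03. That gene was PIC2, a mitochondrial phosphate and copper carrier, which rose by 0.90 (SE 0.10, adjusted p = 0.0183), more than AAC1, while the main phosphate carrier gene MIR1 had 0.19 (adjusted p = 0.101). YHB1, CTT1 and PIC2 missed the threshold without wild-type replicate 1, PHO2 deletion replicate 1 or PHO2 deletion replicate 2, and CTT1 also without wild-type replicate 3.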

How the data were processed

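The values are a probe set intensity per array, as deposited by the authors on a linear scale. The submitters' processing notes name R 2.8.0, affy and RMA, a method that gives log2 values, so that the deposited intensity was turned back from log2 is an inference from the values. The sources used here do not say which arrays were normalized together. The median signal over all probe sets was 313 and 297 on the deletion-labelled arrays, against 260, 253 and 244 on wild-type replicates 1, 2 and 3. Over the matched genes the median log2 signals were closer, at 11.18 and 11.16 against 11.13, 11.16 and 11.09. The cause of this offset was not tested. Of 10928 probe sets, 5498 matched a gene of assembly R64, giving 5449 genes (the probe set with the highest mean where a gene has several). The background bound, 6.44 on the log2 scale, is the 95th percentile of the 1747 annotated probe sets with no matched S. cerevisiae gene, and no dim gene was left out. Log2 intensities were fitted with limma 3.58.1 in R 4.3.3 (lmFit, eBayes, PHO2 deletion minus wild-type, two-sided, Benjamini-Hochberg over all genes), with 3 residual and 2.23 prior degrees of freedom. Errors are limma's standard errors, and those of a change of one paralog relative to the other are pooled over arrays. The number of arrays limits the precision. Gene length is the annotated span in R64. Members, lists and alternatives were chosen with earlier results of these data known. Named were all members, HYP2, up to 4 called genes in each direction per list (in lists with none, the 2 smallest p) and the 3 nearest patterns. COX7, HAP1, HAP4, AUS1, OLE1, MIR1, TAH11, UTR1, CTA1, NCP1 and ERG28 were added after their values were seen. The replicate numbers are shared by both groups, and deviations of same-numbered arrays from their group means correlated at -0.38 (replicate 1) and -0.00 (replicate 2) across genes, so the numbers were not taken to pair the arrays. The listed genes DAN2, DAN3 and SAM5 were not analysed here.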

Additional observations from a re-analysis of the deposited data

Results flagged for a closer look

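A probe set outside the gene comparisons, 1 of 47 reporter probe sets for foreign construct sequences, averaged a log2 signal of 14.36 on the deletion-labelled arrays, against 4.42 on wild-type arrays, which is below the background bound. Taken at that bound, the mean on the deletion-labelled arrays was at least 243-fold higher. It was flagged as a signal in data that the gene comparisons do not use, and the sources used here do not name its sequence.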

How the results depend on the processing

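With 3 and 2 arrays, calls depended on single arrays: leaving out each array in turn gave between 19 and 257 called genes (275 with all arrays) and between 0 and 13 called genes of the lists around the members (9 with all arrays). The lowest counts, 23, 19 and 26 over all genes and 0 in the lists, came without wild-type replicate 1, PHO2 deletion replicate 1 and PHO2 deletion replicate 2, and each of the last 2 leaves a lone array that is assumed to vary like the others. With the replicate number as a block, which leaves few degrees of freedom, 35 genes and 1 list gene passed, COX7, which is not among the 9. With the arrays quantile normalized again 417 genes and 16 list genes passed, with array weights 638 and 31, and without genes of 600 nt or less 489 and 19. With a trend in eBayes 20 list genes passed. The cause of these differences was not tested, apart from the fewer genes or arrays that some settings hold. The number of the 10 members past the threshold was between 0 and 5. Of their 135 recomputed differences 124 moved by less than the replicate SD, and so did all 53 recomputed changes between the forms of a pair, although CYC1 relative to CYC7 changed sign (0.31 without wild-type replicate 1 and 0.07 without PHO2 deletion replicate 1, against -0.08). The 11 others were those of PET9 (3), HEM13 (3) and ROX1 (2), all near 0, and of CYC1, COX5A and ANB1 after the correction for gene length. These counts include values that could not move. A trend in eBayes, testing every probe set, and leaving out dim or short genes do not alter a difference. Centring arrays on their medians does not alter a change within a pair. The replicate block repeats the differences obtained without wild-type replicate 3. Without genes of 600 nt or less, CYC1, CYC7, COX5A, COX5B and ANB1 have no value.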
